A study of Mus musculus with 9 samples.

Results

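The cytosolic ribosomal protein genes were examined in neutrophils from 3 compartments of mice with pancreatic tumors. Members were taken by symbol: every gene named Rpl or Rps followed by a number, with an optional letter or copy suffix, together with Rplp0, Rplp1, Rplp2 and Rpsa. Ribosomal S6 kinases and rows ending in -ps were not included. This gave 88 genes of the 46517 listed, 37 with small-subunit names and 51 with large-subunit names, and no symbol was listed more than once. GENCODE M21 gives 5 of the 88 as pseudogenes (Rps3a2, Rps3a3, Rps4l, Rps12l1 and Rps12l2).

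All 9 libraries came from WT C57BL/6 mice that carried an orthotopic transplant (OT) of pancreatic ductal adenocarcinoma cells, the 1242 L line, in the pancreas and were taken at day 27. Neutrophils were sorted from bone marrow (labelled Ly6G.hi), blood and tumor (both labelled Ly6G+), with 3 libraries per compartment, each from a pool of 5 mice. Since each compartment has 3 libraries from separate experiments, n = 3 pools throughout. The paper describes the 3 compartments as taken from the same mice, but the labels do not tie a replicate number to a pool. All mice carried a tumor, and the tumor cells were 1 line expressing luciferase.

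Ribosomal proteins assemble with ribosomal RNA in the nucleolus and form the small subunit, which decodes the mRNA, and the large subunit, which joins amino acids and holds the exit tunnel. Their genes are usually expressed together, and most of their mRNAs begin with a terminal oligopyrimidine (TOP) tract, a C followed by further pyrimidines, through which mTOR and Larp1 set their translation. In neutrophils, protein synthesis is known to be high in the dividing precursors of the marrow and to fall as the cells mature.

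The start sites of 63 of the 88 members were found in RefSeq (GRCm38.p6), and 25 had no entry, among them Rpl3, Rps27a, Rpl36 and Rps4l. A pyrimidine tract, read as a C followed by at least 4 further C or T bases and starting within 10 bases of the annotated start, was found in 36 of the 63 (57.1%), against 30.8% of 27025 genes with a RefSeq promoter. Where a gene had several RefSeq starts, members took the start nearest the GENCODE M21 gene start, and the 27025 genes the first listed. The shares, here and for the motifs below, thus do not rest on the same choice of start. The windows below run from 10 bases before the start to 20 bases from it, 5′ to 3′, with the first tract that meets this definition in capitals; a window can hold other runs of pyrimidines, which stay in lower case. They are shown for some of the members on which the results below turn, of which only Rps9 was lower in tumor than in blood. Rpl37, which was also lower, is not shown, and no tract of this kind was found in its window.

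Rps9, chr7:3704031-3704060 (+ strand): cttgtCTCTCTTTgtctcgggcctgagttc
Rps6, chr4:86857348-86857377 (- strand): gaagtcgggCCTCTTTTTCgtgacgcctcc
Rps2, chr17:24720053-24720082 (+ strand): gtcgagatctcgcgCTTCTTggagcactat
Rpl12, chr2:32961702-32961731 (+ strand): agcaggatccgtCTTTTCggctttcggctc
Rpl22, chr4:152325716-152325745 (+ strand): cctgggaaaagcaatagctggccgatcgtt
Rpl22l1, chr3:28805498-28805527 (+ strand): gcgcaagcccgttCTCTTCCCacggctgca
Rps27, chr3:90213629-90213658 (- strand): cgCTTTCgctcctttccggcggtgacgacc
Rps27l, chr9:66946076-66946105 (+ strand): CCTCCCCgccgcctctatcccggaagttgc
Rpsa, chr9:120127756-120127785 (+ strand): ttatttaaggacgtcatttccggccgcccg
Rplp0, chr5:115559457-115559486 (+ strand): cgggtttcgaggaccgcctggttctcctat

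Rps9, the member with the largest fall from blood to tumor, and Rps6 and Rpl12, which rose, all carried a tract near the start, whereas no tract starting within 10 bases of the annotated start was found for Rpl22, Rpsa and Rplp0. An annotated start can lie some bases away from the start used in these cells: the RefSeq start was within 100 bases of the GENCODE M21 start for 48 of the 63. In the promoter from 250 bases before the start to 50 from it, searched on both strands, the ETS core CCGGAAG was found in 39.7% of members and 9.12% of all genes, and the GC box GGGCGG in 60.3% and 35.9%. The YY1 core AAGATGGC was found in 7.94% of members and 2.88% of all genes. The TATA box TATAAA was found in 9.52% and 14.2%.

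The values are log2 FPKM as deposited, in which a small constant was included by the authors. Whole reads could be recovered from the steps of these values for every gene, with 4580807 to 7949367 reads per library. Duplicate reads from PCR were left in, and intervals from read counts therefore cover counting error only. The FPKM length was the genomic span for most members, so levels are compared between genes only as RPM (reads scaled to a fixed library size) per kilobase of exon. Of the 88 members, 79 passed the filter (log2 FPKM over 0 in at least 3 libraries) among 7794 genes tested with limma. Of the 79, 4 (Rpl22, Rpl35, Rpl36a and Rps28) would not have passed without the tumor libraries. The summed neutrophil markers were at 87666 to 95776 RPM in the bone marrow, 38809 to 41014 in the blood and 11908 to 14477 in the tumor, and all 10 were read in every library. The sum holds Ltf and Camp, which are also on the list of immature neutrophil genes below. Ltf had 233192 to 243442 reads in bone marrow and 2624 to 2846 in blood. Csf3r went the other way, with 13802 to 18048 and 52750 to 72754 reads. Of the 10, 8 were lower and 2 higher in blood than in bone marrow (23.6% and 20.6% of all genes tested). The sum does not by itself give the neutrophil content. Other cells were also represented. The 11 tumor epithelium markers together took 10.1 to 14.1 RPM in the bone marrow, 25.6 to 182 in the blood and 2715 to 5152 in the tumor, where none of them was at 0. Fibroblast markers reached 1127 to 1271 in tumor against at most 12.5 elsewhere, and acinar markers 651 to 2386 in tumor against at most 9.67. Blood held the highest sum of macrophage and monocyte markers (1738 to 1940, against at most 773 elsewhere). Csf1r had the most reads of that list in blood, 4796 to 6885, against 1254 to 1709 in tumor. C1qb went the other way, with 19 to 29 reads in blood and 60 to 87 in tumor. Of the 9 genes tested from that list, 4 had a higher mean in tumor than in blood. The macrophage and monocyte sum thus does not by itself give the content of these cells. The sums of lymphocyte (107 to 203), platelet (579 to 805) and red cell (284 to 596) markers were also highest in blood. The part of all these other cells in the results on ribosomal protein genes was not tested. In sorted pools a change in the share of cells that carry a transcript and a change in RNA per cell cannot be told apart.

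The 88 members took a small share of the reads, lowest in blood and highest in tumor. The share was 0.373%, 0.322% and 0.410% in the 3 bone marrow libraries, 0.305%, 0.236% and 0.201% in blood and 0.704%, 0.496% and 0.707% in tumor. No library of one compartment overlapped another, and the mean in tumor (0.636% ± 0.121, SD, n = 3) was 2.57 times that in blood (0.247% ± 0.0530) and 1.73 times that in bone marrow (0.368% ± 0.0440). The 95% Wilson binomial intervals spanned at most 0.0140 percentage points, so the spread between pools was far wider than the counting error. The sums were also taken on the library sizes the authors had scaled. They were 4047 to 4648 RPM in the bone marrow, 2390 to 3539 in the blood and 4572 to 6179 in the tumor. Bone marrow and tumor then overlapped, and the tumor mean was 1.26 times that in bone marrow and 1.88 times that in blood. The epithelium sums of the 3 tumor libraries, in the same order as their shares, were 3414, 2715 and 5152 RPM and the fibroblast sums 1127, 1222 and 1271 RPM.

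**Figure D1:**
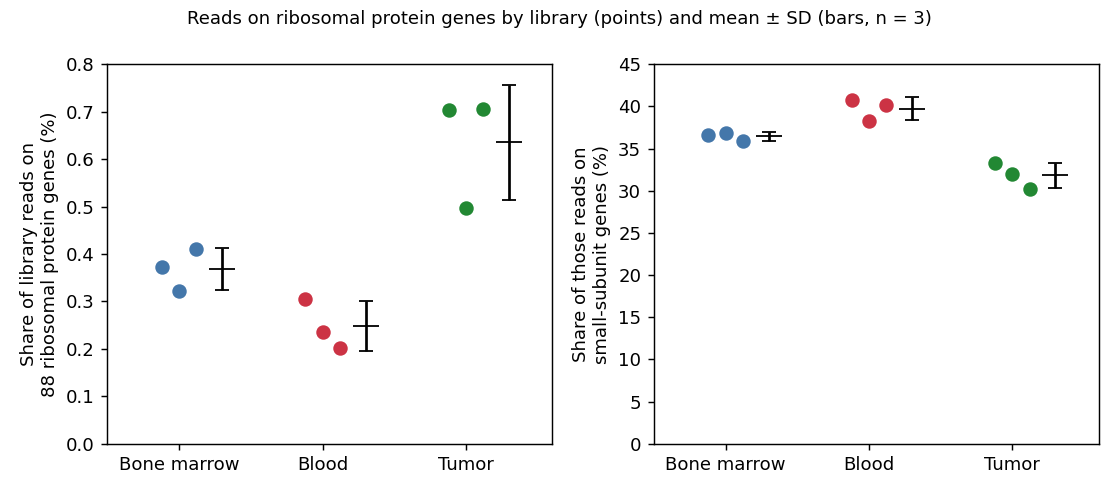
Share of each library's recovered reads that fell on the 88 members (left, percent) and share of those reads on small-subunit genes (right, percent), by compartment; points are libraries and bars the mean ± SD (n = 3). Tumor libraries lie between 0.496% and 0.707% on the left, above every bone marrow and blood library, and below every other library on the right.

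Within the reads on members, small-subunit genes took 36.6%, 36.9% and 35.9% in bone marrow, 40.8%, 38.3% and 40.2% in blood and 33.2%, 32.0% and 30.2% in tumor, again without overlap. A single gene, Rps9, carried much of this split. Rps9 alone held 12.7%, 12.2% and 13.2% of all reads on members in blood, 5.86%, 6.50% and 5.08% in bone marrow and 2.65%, 2.34% and 1.95% in tumor. Without Rps9, a choice made after its values were seen, the small-subunit share was 32.5% to 32.7% in the bone marrow, 29.7% to 32.2% in the blood and 28.8% to 31.4% in the tumor, and blood and tumor overlapped.

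Tumor against blood asked how neutrophils in the tumor differ from those in circulation, and here the ribosomal protein genes were mostly higher in tumor. Of 79 members tested, 44 were higher and 3 lower (Rps9, Rpl37 and Rps27a), while 32 did not pass the threshold (limma, Benjamini-Hochberg adjusted p under 0.05 over all 7794 genes). Among all genes tested, 28.1% were higher and 34.5% lower. Leaving aside the 4 members that passed the filter only with the tumor libraries, 41 of 75 were higher. Without any filter on low values, 29 of the 88 members were higher and 2 lower, against 9.91% and 6.28% of all 46517 genes. The median log2 difference over the members was 0.79, against -0.17 over all genes. Small-subunit genes (17 higher and 2 lower of 34, median 0.81) and large-subunit genes (27 higher and 1 lower of 45, median 0.79) had like medians. In 44 members every tumor library was above every blood library and in 4 every one was below (background 30% and 37%). The largest differences were those of Rpl12, Rpl3, Rpl22, Rps18 and Rps2. Leaving out 1 library at a time gave 35 to 57 members higher and 3 to 4 lower.

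**Figure D2:**
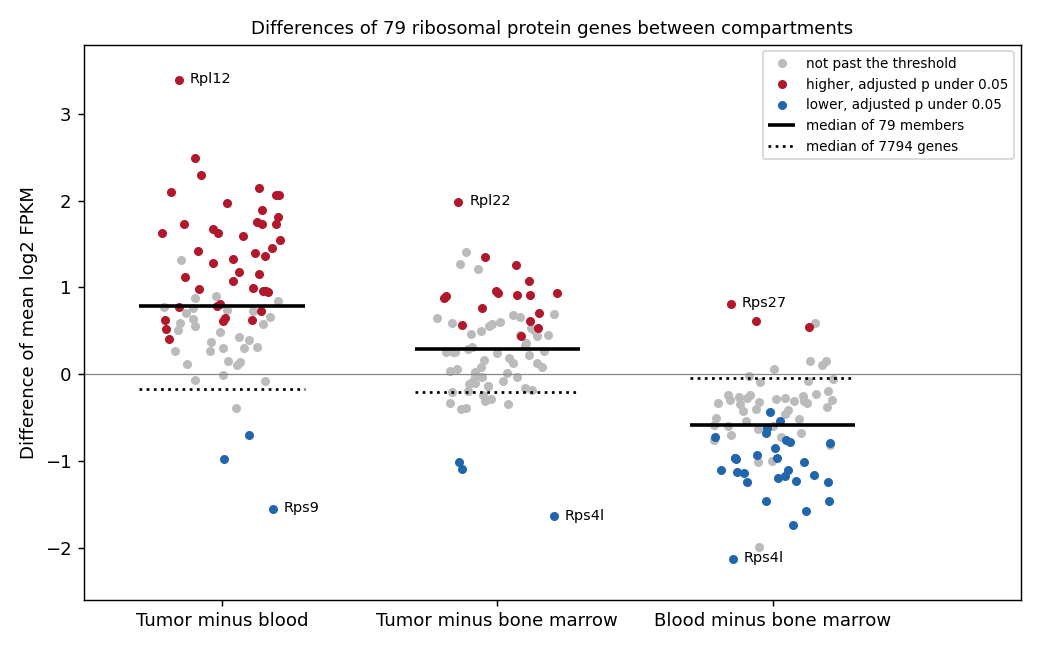
Difference of mean log2 FPKM for each of the 79 members tested (points, spread sideways for legibility) in 3 comparisons, coloured by the limma call, with the median of the members (solid line) and of all 7794 genes (dotted line). In tumor minus blood the member median is 0.79 with 44 members called higher, and in blood minus bone marrow it is -0.58 with 30 called lower.

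Against bone marrow, the neutrophil reservoir where the precursors also divide, fewer members were higher in tumor. Of the 79, 17 were higher, 3 lower (Rps4l, Rps27a and Rps9) and 59 not past the threshold, against 22.4% of all genes higher and 32.9% lower. Without the 4 members that passed the filter only with the tumor libraries, 14 of 75 were higher. The median was 0.29 over the members and -0.21 over all genes. Every tumor library was above every bone marrow library in 29 members and below in 4 (background 26.2% and 37.7%). The share of members called higher, 17 of 79, was thus near the background share. This count also rested on single libraries: it was 6 without tumor replicate 1, 9 without tumor replicate 3, 9 without bone marrow replicate 1 and 7 without bone marrow replicate 2. The scaling of the libraries mattered as well, since with plain library totals 37 members were higher, the member median was 0.74 and the median over all genes moved from -0.21 to 0.26.

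Blood against bone marrow compares circulating cells with the marrow they left, and more members were lower in blood than higher. There were 30 lower, 3 higher (Rps27, Rpl41 and Rps9) and 46 not past the threshold, against 23.6% of all genes lower and 20.6% higher. The member median was -0.58, whereas the median of all genes was -0.04. Every blood library was below every bone marrow library in 36 members and above in 4 (background 31% and 27.8%). Without bone marrow replicate 1 the count lower was 19, without bone marrow replicate 3 it was 16, without blood replicate 3 it was 18 and without blood replicate 2 it was 20. In the same fits the count higher fell to 0 without bone marrow replicate 2 and to 1 without bone marrow replicate 3, blood replicate 1 or blood replicate 2.

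The comparisons share libraries, so they are not independent of each other. In all, 28 members were both higher in tumor than in blood and lower in blood than in bone marrow, calls that rest on the same blood libraries (background 13%), 15 were above both others in tumor (background 16.5%), 2 were lower than in both (Rps9 and Rps27a, background 23.7%) and 27 passed in no comparison (background 22.3%). Among the 15 were Rpl3, Rpl5, Rpl10a, Rpl13, Rpl13a, Rpl15, Rpl22, Rpl22l1, Rpl36a, Rplp0, Rps3a1, Rps6, Rps20 and Rps26. Of these, Rpl22 and Rpl36a passed the filter only with the tumor libraries.

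**Figure D3:**
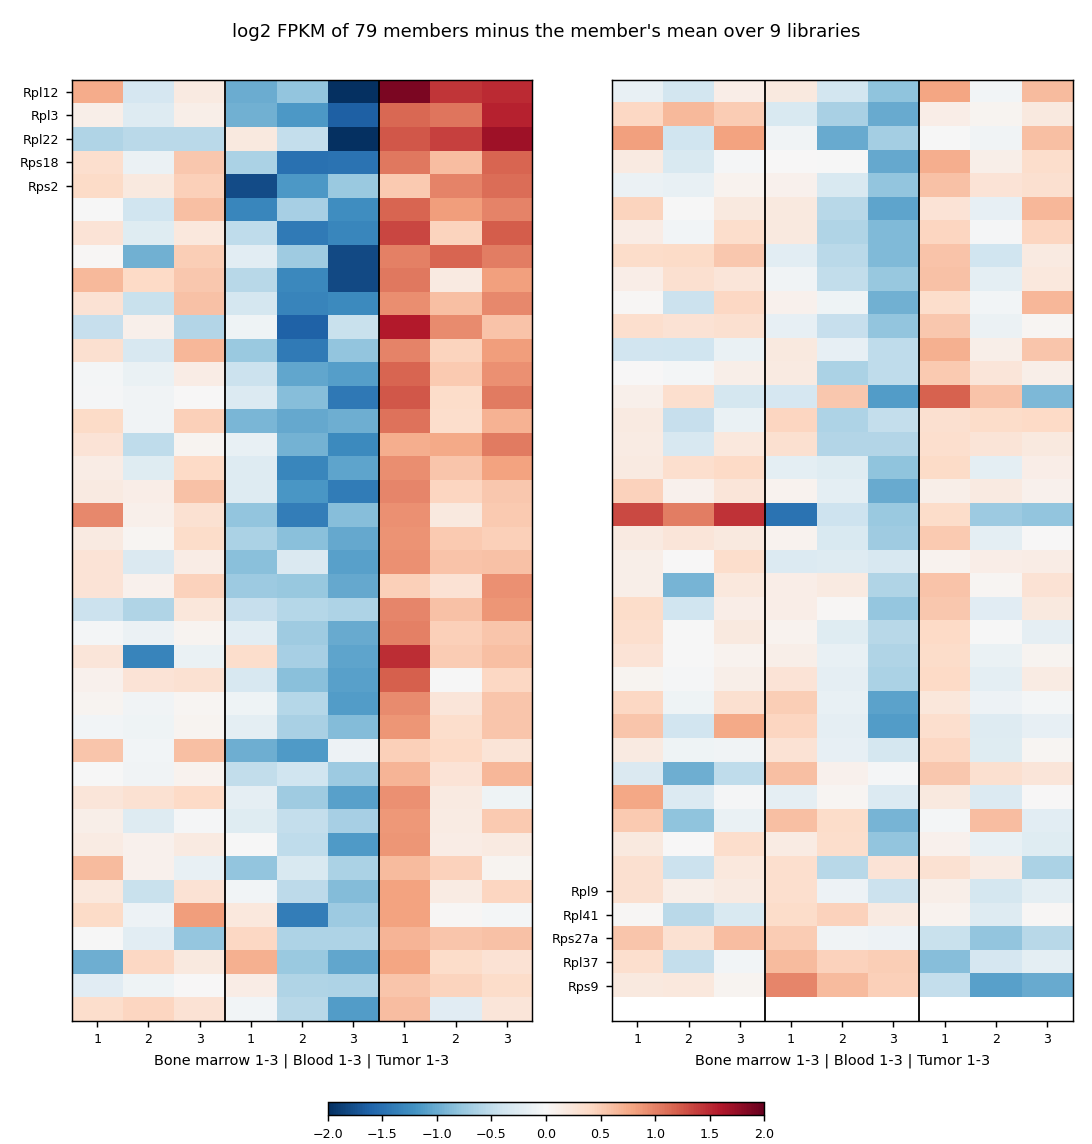
log2 FPKM of each of the 79 members tested in each of the 9 libraries, minus the member's mean over the libraries (colour, log2 units), ordered by the tumor minus blood difference from the top left to the bottom right, with the 5 highest and 5 lowest named. Blood libraries are blue and tumor libraries red for most members, while Rps9, Rpl37 and Rps27a at the end run the other way.

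The stalk of the large subunit recruits the factors that drive elongation, and its core protein Rplp0 moved in every comparison while its smaller partners did not pass. Rplp0 (ENSMUSG00000067274.9, chr5:115559467-115563727, plus strand) was at log2 FPKM 6.91, 6.84 and 6.99 in bone marrow, 6.43, 6.51 and 6.18 in blood and 7.59, 7.19 and 7.58 in tumor. The 3 compartments did not overlap, with blood lowest and tumor highest. The difference was 1.08 ± 0.14 (SE) against blood, 2.11-fold (limma adjusted p = 0.000268), 0.54 ± 0.14 against bone marrow (adjusted p = 0.0111) and -0.54 ± 0.14 in blood against bone marrow (adjusted p = 0.014). All 3 calls held in each of the 9 fits that left out 1 library. In the fit without a filter on low values, the call in tumor against blood held. The calls against bone marrow did not pass there (adjusted p = 0.0550 in tumor and 0.0769 in blood). Rplp1, which dimerises with Rplp2 on Rplp0, was at 3.18, 2.73 and 3.57 in bone marrow, 3.25, 3.08 and 2.21 in blood and 3.52, 3.12 and 3.83 in tumor, and its tumor minus blood difference was 0.64 ± 0.33 (95% interval -0.13 to 1.41, adjusted p = 0.127). Rplp2 lay at 1.17, 0.52 and 0.84 in bone marrow, 1.41, 0.36 and 0.51 in blood and 1.30, 1.35 and 1.38 in tumor, with a difference of 0.58 ± 0.29 (95% interval -0.09 to 1.26, adjusted p = 0.115). Tumor and blood libraries overlapped for both. Leaving out blood replicate 1 brought the Rplp2 difference to 0.91 (adjusted p = 0.00894).

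Rpl12, which sits at the base of the stalk, had the largest difference of any member and few reads. Its reads were 63, 25 and 42 in bone marrow, 11, 18 and 2 in blood and 129, 114 and 125 in tumor, and its log2 FPKM 1.32, 0.23 and 0.75 in bone marrow, -0.43, -0.22 and -3.03 in blood and 2.46, 2.00 and 2.06 in tumor. Every tumor library was above every other library, and blood replicate 3, with 2 reads, stood apart from the other two. The tumor minus blood difference was 3.40 ± 0.71 (adjusted p = 0.00355), and the call held in all 9 fits that left out 1 library, with values from 2.49 to 3.90. Against bone marrow the difference of 1.40 ± 0.71 did not pass (adjusted p = 0.128), but it passed without blood replicate 3 (adjusted p = 0.00622), which enters the fit only through the shared spread. Blood minus bone marrow was -1.99 ± 0.71 (adjusted p = 0.0524), which passed with any blood library left out, at -2.39 (adjusted p = 0.0477) without replicate 1, -2.5 (0.0355) without replicate 2 and -1.09 (0.0385) without replicate 3. Of the windows of 1 read length in its transcripts, 44.3% also occur in transcripts of other genes.

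**Figure D4:**
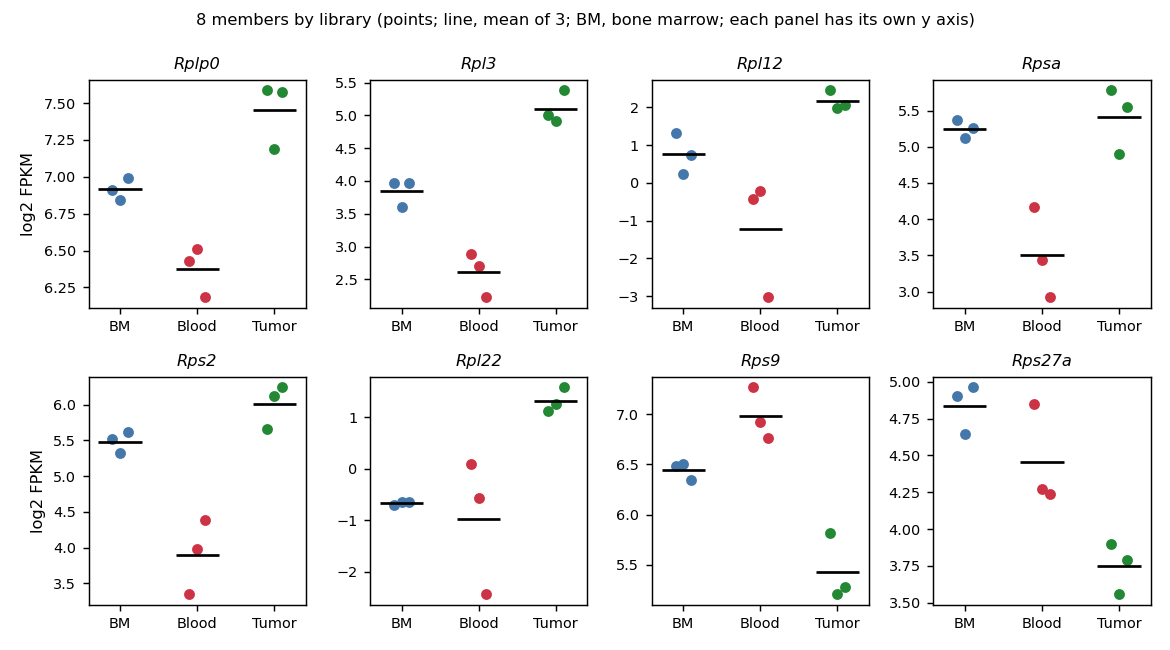
log2 FPKM of 8 members in each library (points) with the mean of 3 (line), for bone marrow (BM), blood and tumor; each panel has its own y axis. In the first 6 panels the tumor mean is the highest, and for Rps9 and Rps27a all 3 tumor libraries lie below every other library.

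Rpl5 and Rpl11 bind the 5S ribosomal RNA together and, outside the ribosome, bind Mdm2, the ligase that keeps p53 low. Rpl5 was at 3.26, 3.11 and 3.45 in bone marrow, 2.45, 2.25 and 2.06 in blood and 3.98, 3.61 and 3.56 in tumor, with no overlap between compartments. It was 1.46 ± 0.16 higher in tumor than in blood (adjusted p = 0.000116) and -1.02 ± 0.16 in blood against bone marrow (adjusted p = 0.00155), and both calls held in all 9 fits with 1 library left out. Against bone marrow the difference was 0.44 ± 0.16 (adjusted p = 0.0435), which was lost without tumor replicate 1 (0.31, adjusted p = 0.128), tumor replicate 2 (0.50, 0.0555), bone marrow replicate 1 (0.43, 0.102), bone marrow replicate 2 (0.36, 0.135) or blood replicate 2 (0.44, 0.0630). Rpl5 also shares 88.2% of its windows with other genes, the highest share among the members tested. Rpl11 did not pass the filter, although its reads were 155, 119 and 180 in bone marrow, 77, 91 and 65 in blood and 162, 156 and 153 in tumor, because its deposited FPKM length was 25164 bases against 2697 bases of exon.

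Around the peptidyl transferase centre and the exit tunnel, Rpl3 and Rpl4 gave the firmest differences. Rpl3, which lies close to the peptidyl transferase centre, was at 3.97, 3.59 and 3.97 in bone marrow, 2.89, 2.70 and 2.22 in blood and 5.01, 4.92 and 5.38 in tumor, with reads of 1471, 962 and 1466 in bone marrow, 411, 512 and 308 in blood and 2807, 3211 and 4671 in tumor. The compartments did not overlap. Tumor was 5.65-fold above blood (2.5 ± 0.21, adjusted p = 3.11e-05) and 2.39-fold above bone marrow (1.26 ± 0.21, adjusted p = 0.00128), and blood was below bone marrow by -1.24 ± 0.21 on the same scale (adjusted p = 0.00216). All 3 calls held with any 1 library left out. Rpl3 shares 70.9% of its windows with other genes, whereas Rpl4, a wall protein of the tunnel, shares none. Rpl4 was at 6.63, 6.44 and 6.81 in bone marrow, 5.63, 5.59 and 5.34 in blood and 6.84, 6.64 and 7.27 in tumor, which put it 1.40 ± 0.18 higher in tumor than in blood (adjusted p = 0.000277) and -1.11 ± 0.18 in blood against bone marrow (adjusted p = 0.00185). Its tumor and bone marrow libraries overlapped (0.29 ± 0.18, adjusted p = 0.201).

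Of the 9 listed proteins that ring the exit tunnel, 5 were higher in tumor than in blood and none lower (median 1.00), against 28.1% and 34.5% of all genes tested. There was 1 higher than in bone marrow (Rpl22, background 22.4%), and 3 were lower in blood than in bone marrow (background 23.6%). Rpl22 and Rpl35 are in these counts and passed the filter only with the tumor libraries. In the fit without a filter, 3 of the 9 were higher in tumor than in blood and 0 lower (background 9.91% and 6.28%). There, 0 were higher in tumor than in bone marrow (background 7.3%), and 2 were lower in blood than in bone marrow (background 4.26%). Rpl31, at the tunnel exit, was at 1.66, 0.80 and 1.00 in bone marrow, -0.09, -0.68 and -0.15 in blood and 1.61, 0.90 and 1.22 in tumor. It was 1.55 ± 0.30 higher in tumor than in blood (adjusted p = 0.0024) and -1.46 ± 0.30 in blood against bone marrow (adjusted p = 0.00555), with tumor and bone marrow overlapping. Rpl39, a short protein inside the tunnel, had only 6 to 29 reads per library and no difference past the threshold (0.11 ± 0.50 in tumor against blood, 95% interval -1.05 to 1.27). At this depth a change of that size in Rpl39 was not detectable.

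Other large-subunit members at the ends of the ranking were Rpl36, Rpl37, Rpl41 and Rpl9. Rpl36 was at 2.15, 0.58 and 1.77 in bone marrow, 2.27, 1.24 and 0.85 in blood and 3.39, 2.42 and 2.51 in tumor, and every tumor library was above every other library, yet it missed the threshold against blood (1.32 ± 0.51, adjusted p = 0.0542) and bone marrow (1.27 ± 0.51, adjusted p = 0.0685). It passed against blood without blood replicate 1 (1.73, adjusted p = 0.0231) or without bone marrow replicate 2 (1.32, adjusted p = 0.0312), and against bone marrow without bone marrow replicate 1 (1.59, adjusted p = 0.0493). Rpl37, a zinc-binding protein of the large subunit, ran the other way, at 2.43, 1.63 and 2.04 in bone marrow, 2.73, 2.56 and 2.59 in blood and 1.25, 1.77 and 1.91 in tumor. It was lower in tumor than in blood by -0.98 ± 0.24 (adjusted p = 0.0074) in every fit with 1 library left out, but with plain library totals the difference was -0.54 (adjusted p = 0.109). Rpl41, the smallest ribosomal protein, was at 4.13, 3.55 and 3.79 in bone marrow, 4.47, 4.55 and 4.27 in blood and 4.17, 3.84 and 4.12 in tumor and was higher in blood than in bone marrow (0.61 ± 0.16, adjusted p = 0.0181). That call was lost without blood replicate 1 (0.59, adjusted p = 0.0511), blood replicate 2 (0.55, 0.0603), bone marrow replicate 2 (0.47, 0.0546) or bone marrow replicate 3 (0.59, 0.0559). Rpl9 did not pass in any comparison (tumor minus blood -0.07 ± 0.20, 95% interval -0.54 to 0.40).

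On the small subunit, Rps9 had the largest fall from blood to tumor among the members tested. Rps9 (ENSMUSG00000006333.13, chr7:3703993-3706897, plus strand) is a body protein that binds the 18S ribosomal RNA early in assembly. Its log2 FPKM was 6.48, 6.50 and 6.34 in bone marrow, 7.27, 6.92 and 6.76 in blood and 5.81, 5.20 and 5.28 in tumor, with 810 to 1964 reads per library. Every tumor library was below every other library, and every blood library above every bone marrow library. Tumor was at 0.341 times the blood level (-1.55 ± 0.19, adjusted p = 0.000211) and 0.497 times the bone marrow level (-1.01 ± 0.19, adjusted p = 0.00246). Both calls held under every alternative tried. The rise from bone marrow to blood (0.54 ± 0.19, adjusted p = 0.048) was weaker. It was lost without blood replicate 1 (0.40, adjusted p = 0.140), blood replicate 2 (0.58, 0.0866), bone marrow replicate 1 (0.56, 0.0965), bone marrow replicate 2 (0.57, 0.0884), bone marrow replicate 3 (0.49, 0.130) or tumor replicate 3 (0.54, 0.0553). Rps9 shares only 4.01% of its windows with other genes, and no exon of another gene overlaps its own.

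Rps2 and Rps18 moved with the majority. Rps2, near the mRNA entry channel, was at 5.52, 5.32 and 5.61 in bone marrow, 3.35, 3.98 and 4.38 in blood and 5.66, 6.12 and 6.24 in tumor, with blood below both other compartments in every library. It was 4.3-fold higher in tumor than in blood (2.10 ± 0.27, adjusted p = 0.000268) and -1.58 ± 0.27 in blood against bone marrow (adjusted p = 0.00228). Rps18, a protein of the small-subunit head, was at 2.12, 1.67 and 2.33 in bone marrow, 1.15, 0.28 and 0.30 in blood and 2.84, 2.40 and 2.94 in tumor, which gave 2.15 ± 0.29 in tumor against blood (adjusted p = 0.00036) and -1.46 ± 0.29 in blood against bone marrow (adjusted p = 0.00478). Neither passed in tumor against bone marrow (0.52 ± 0.27, adjusted p = 0.132, and 0.69 ± 0.29, adjusted p = 0.0745), although Rps18 did without blood replicate 1 (0.69, adjusted p = 0.0309). Of the 14 listed proteins of the head, 5 were higher in tumor than in blood and 1 lower (Rps27a), with a median of 0.64. The share called higher was near that of all genes tested (28.1%). Rps13 was at 2.48, 2.72 and 2.58 in bone marrow, 1.77, 1.42 and 1.06 in blood and 2.19, 2.12 and 2.26 in tumor, so that blood was below both other compartments (0.78 ± 0.18 in tumor against blood, adjusted p = 0.00569; -1.18 ± 0.18 in blood against bone marrow, adjusted p = 0.00138).

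Several members have roles outside the ribosome, and among the 6 of this list that were tested 4 were higher in tumor than in blood and 1 lower (background 28.1% and 34.5%). Rps6, the substrate of the S6 kinases, was at 5.18, 5.09 and 5.28 in bone marrow, 5.0, 4.50 and 4.21 in blood and 6.22, 5.69 and 5.78 in tumor. Every tumor library was above every other, by 1.33 ± 0.22 against blood (adjusted p = 0.000994) and, relative to bone marrow, 0.71 ± 0.22 (adjusted p = 0.0239), the latter lost without tumor replicate 1 (0.55, adjusted p = 0.0736), bone marrow replicate 1 (0.71, 0.0599) or bone marrow replicate 2 (0.66, 0.0722). Blood was below bone marrow by -0.62 ± 0.22 at an adjusted p of 0.05, a call lost in 7 of 9 fits with 1 library left out (adjusted p up to 0.144, without blood replicate 3) and kept only without blood replicate 1 or tumor replicate 1. Rpsa, also known as the laminin receptor, was at 5.37, 5.12 and 5.26 in bone marrow, 4.17, 3.44 and 2.92 in blood and 5.78, 4.90 and 5.55 in tumor. Blood was lowest in every library, with 1.90 ± 0.33 in tumor against blood (adjusted p = 0.00147) and -1.74 ± 0.33 in blood against bone marrow (adjusted p = 0.0041), while tumor and bone marrow overlapped (0.16 ± 0.33, 95% interval -0.61 to 0.93).

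Rpl10a, of the L1 stalk, and Rpl13a, which also serves in a complex that silences inflammatory transcripts, were above both other compartments in tumor. Rpl10a was at 3.25, 2.73 and 3.19 in bone marrow, 2.47, 1.56 and 1.67 in blood and 4.31, 3.42 and 4.18 in tumor, or 2.07 ± 0.32 against blood (adjusted p = 0.000734) and, relative to bone marrow, 0.91 ± 0.32 (adjusted p = 0.0404). Rpl13a was at 2.15, 1.77 and 2.01 in bone marrow, 1.78, 1.56 and 1.36 in blood and 2.89, 2.19 and 2.55 in tumor, or 0.98 ± 0.20 (adjusted p = 0.0035) and 0.57 ± 0.20 (adjusted p = 0.0446). The calls against blood held with any 1 library left out. Those against bone marrow were lost in 6 of 9 such fits for each gene, with adjusted p up to 0.126 for Rpl10a and 0.136 for Rpl13a, both without bone marrow replicate 2. Rpl13a has exons that other genes overlap over 35.4% of their length.

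Rps27a, which is made as a fusion with ubiquitin, was lowest in tumor. It was at 4.90, 4.64 and 4.96 in bone marrow, 4.85, 4.27 and 4.24 in blood and 3.90, 3.56 and 3.79 in tumor, with every tumor library lowest. The difference was -0.70 ± 0.18 against blood (adjusted p = 0.0107) and, relative to bone marrow, -1.09 ± 0.18 (adjusted p = 0.00153). Both held with any 1 library left out, but the first was lost with plain library totals (-0.26, adjusted p = 0.333) and with quantile normalization (-0.29, adjusted p = 0.244). Rps3, which also acts in DNA repair, did not pass in any comparison (tumor minus blood 0.43 ± 0.23, adjusted p = 0.138), although it did against blood (0.62, adjusted p = 0.0470) and in blood against bone marrow (-0.71, adjusted p = 0.0423) without blood replicate 1. Rpl38, known for the translation of Hox mRNAs, had 3 to 19 reads and was not tested.

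In all, 7 paralogs stand beside a parent gene, and they are compared as the paralog's reads in the pair's reads, a share that the scaling of a library cannot change. Rpl22, which shares none of its windows with other genes, was at -0.70, -0.64 and -0.65 in bone marrow, 0.09, -0.58 and -2.45 in blood and 1.13, 1.25 and 1.59 in tumor, and Rpl22l1 at 1.41, 1.97 and 1.29 in bone marrow, 1.79, 0.25 and 1.43 in blood and 3.45, 2.82 and 2.45 in tumor. Both were higher in tumor than in blood (2.30 ± 0.58, adjusted p = 0.00869, and 1.75 ± 0.43, adjusted p = 0.00812) and than in bone marrow (1.99 ± 0.58, adjusted p = 0.0194, and 1.35 ± 0.43, adjusted p = 0.029). Rpl22 passed the filter only with the tumor libraries. In the fit without a filter these differences did not pass for Rpl22 (adjusted p = 0.0543 and 0.107) or for Rpl22l1 (adjusted p = 0.0548 and 0.155). The second pair of calls was lost without bone marrow replicate 1 (1.97, adjusted p = 0.0514, and 1.28, adjusted p = 0.0798), for Rpl22 also without tumor replicate 3 (1.86, 0.0585), and for Rpl22l1 without bone marrow replicate 3 (1.22, 0.0858), tumor replicate 1 (1.08, 0.0918) or tumor replicate 2 (1.40, 0.0593). Rpl22l1 took 50.7%, 59.5% and 47.8% of the pair in bone marrow, 43.5%, 29.5% and 78.1% in blood and 54.4%, 41.4% and 30.2% in tumor. The compartments overlapped in this share.

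Rps27l took 14.8%, 20.8% and 16.8% of the reads of Rps27 and Rps27l together in bone marrow, 7.56%, 7.65% and 5.43% in blood and 13.7%, 10.1% and 10.8% in tumor. No library of one compartment overlapped another. An exact two-sided permutation test of the log2 ratio gave p = 0.1 in each of the 3 comparisons (p = 0.24 adjusted over 12), the smallest that 3 against 3 libraries allow. Rps27, the parent, was at 4.25, 3.58 and 4.05 in bone marrow, 5.16, 4.64 and 4.53 in blood and 5.09, 4.87 and 4.80 in tumor. It was higher in tumor (0.96 ± 0.22, adjusted p = 0.00667) and in blood (0.81 ± 0.22, adjusted p = 0.0182) than in bone marrow, the latter not without bone marrow replicate 2 (0.62, adjusted p = 0.0510). Rps27l was at 0.14, 0.06 and 0.15 in bone marrow, -0.04, -0.54 and -1.17 in blood and 0.84, 0.12 and 0.15 in tumor, which gave 0.96 ± 0.32 in tumor against blood (adjusted p = 0.0325), lost without blood replicate 2 (0.98, 0.0671), blood replicate 3 (0.66, 0.0911) or tumor replicate 1 (0.72, 0.103). It rested on 7 to 38 reads per library. Rps27 shares 51.0% of its windows with other genes and Rps27l none, so the share of the pair could depend on how such reads were counted.

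Rps4l, a transcribed retrocopy on chromosome 6, was mostly read in bone marrow. Its reads were 48, 33 and 52 in bone marrow, 4, 12 and 8 in blood and 23, 13 and 13 in tumor, and it fell by 2.13 ± 0.37 in blood (adjusted p = 0.00278) and by 1.64 ± 0.37 in tumor (adjusted p = 0.0067) against bone marrow, and both calls held in all 9 fits with 1 library left out. Rps4x, the X-linked parent, was at 5.07, 5.07 and 5.23 in bone marrow, 4.50, 4.16 and 3.82 in blood and 5.27, 4.30 and 4.88 in tumor, lower in blood than in bone marrow (-0.97 ± 0.26, adjusted p = 0.0172) and at -0.31 ± 0.26 in tumor against bone marrow (adjusted p = 0.341). The call in blood was lost without blood replicate 3 (-0.80, adjusted p = 0.0559) or bone marrow replicate 3 (-0.92, 0.0566). Rps4l took 4.26% ± 0.456 of the pair's reads in the bone marrow, 2.09% ± 0.950 in the blood and 1.76% ± 0.460 in the tumor. The log2 ratio did not overlap between bone marrow and either other compartment (exact permutation p = 0.1, adjusted 0.24).

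Rpl7l1, which acts in assembly of the large subunit, took 26.2% ± 2.91 of the reads of Rpl7 and Rpl7l1 together in the bone marrow, 29.6% ± 4.57 in the blood and 26.3% ± 5.63 in the tumor, and the log2 ratio overlapped between all compartments. Rpl7l1 itself was 0.40 ± 0.10 higher in tumor than in blood (adjusted p = 0.00952). Rpl7 gave 0.65 ± 0.23 (adjusted p = 0.0374), a call lost in 7 of 9 fits with 1 library left out, and kept without blood replicate 1 or tumor replicate 2. Rpl10, needed for the last step of large-subunit maturation, gave 0.61 ± 0.21 (adjusted p = 0.035), lost in 7 of 9 such fits and kept without blood replicate 1 or tumor replicate 3. The paralogs Rpl10l and Rpl39l, known from the male germline, had 0 reads in all 9 libraries, which in the shallowest allows up to 3 reads of 4580807. Rpl3l, a paralog of striated muscle, had 0 to 14 reads.

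**Figure D5:**
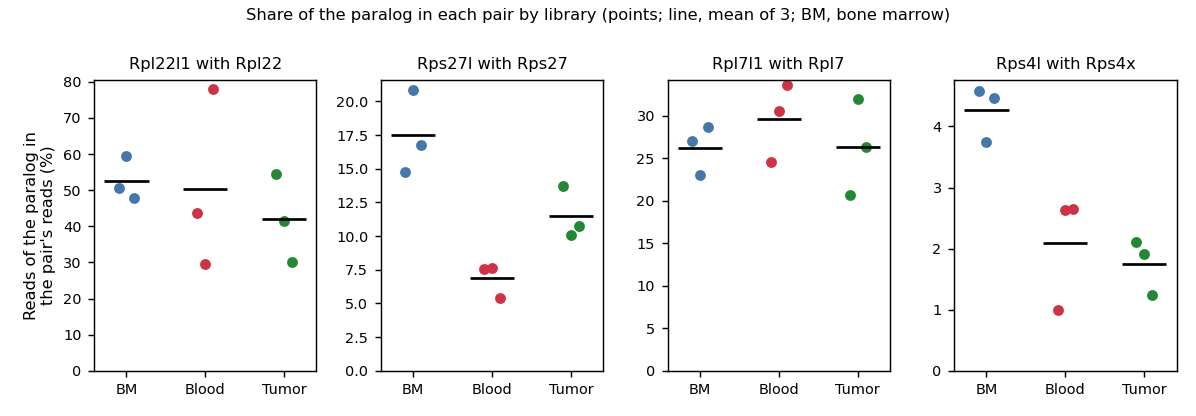
Share of the paralog in the reads of each paralog and parent pair (percent) by library (points) with the mean of 3 (line), for bone marrow (BM), blood and tumor; each panel has its own y axis starting at 0. Rps27l is lowest in blood and Rps4l highest in bone marrow without overlap, while Rpl22l1 and Rpl7l1 overlap in all compartments.

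Levels differed widely between members. Per kilobase of exon, the 79 members tested spanned 1.15 to 310 RPM in the bone marrow, 0.596 to 214 in the blood and 1.66 to 453 in the tumor, and the 5 highest held 40.4%, 41.7% and 44.9% of the summed level. Rplp0 was highest in every compartment (310 ± 15.6 in the bone marrow, 214 ± 24.5 in the blood and 453 ± 68.2 in the tumor). Rpl4 came next on average (256 ± 33.2 in the bone marrow, 119 ± 12.7 in the blood and 317 ± 73.1 in the tumor), and its order with Rps9 changed between compartments, since Rps9 was at 100 ± 5.85 in the bone marrow, 148 ± 27.2 in the blood and 50.7 ± 12.3 in the tumor. In blood Rps9 (148) was above Rpl4 (119), with an SD of 27.2 and 12.7, so these neighbours lay about 1 SD apart. Rps3a1, at 133 in the bone marrow, 93.3 in the blood and 207 in the tumor, was the other member among the highest 4 on average.

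Many ribosomal protein genes have retrocopies in the genome, and reads that fit a copy as well as the parent could be split or dropped, depending on a counting setting that is not given in the sources used here. Of the 79 members tested, 18 share 50% or more of their windows with other genes and 15 share none. Among the 18 are Rpl10 (83.3%), Rps6 (82.4%), Rpl10a (74.1%), Rpl13a (52.6%), Rps27a (51.6%) and Rps27 (51.0%). Among the 15, 8 were higher in tumor than in blood and 0 lower (median 0.49). Among the 18, 12 were higher and 1 lower (median 0.94). These counts include Rpl22 among the 15 and Rpl35 and Rpl36a among the 18. All of them were called higher and passed the filter only with the tumor libraries. The background shares were 28.1% higher and 34.5% lower. In blood against bone marrow 6 of the 15 were lower and 1 higher (median -0.52), and 7 of the 18 were lower and 1 higher (median -0.72), against 23.6% lower and 20.6% higher among all genes tested. The 261 rows with -ps names together took 0.00353% to 0.0114% of the reads.

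Ribosome biogenesis factors process ribosomal RNA and assemble the subunits, and most of those listed were higher in tumor than in blood. Of the 51 listed, 36 passed the filter, and 12 of these would not have passed without the tumor libraries, so that the listed genes are counted in the fit without a filter. There, 46 of the 51 were higher in tumor than in blood and 0 lower (background 9.91% and 6.28% of 46517 genes), with a median of 2.6. Against bone marrow 23 were higher and 0 lower (background 7.3% and 5.53%, median 1.30), and in blood against bone marrow 14 were lower and 1 higher (background 4.26% and 3.3%, median -1.29). The median over all 46517 genes, most of which were hardly read, was 0 in the comparisons with tumor.

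Nop56, a core protein of box C/D snoRNPs, was 2.56 ± 0.18 higher in tumor than in blood (adjusted p = 1.50e-05) and Wdr74 2.59 ± 0.21 higher (adjusted p = 2.65e-05) in the fit with the filter. Both were also higher than in bone marrow, by 1.90 and 1.19. Nob1, the nuclease that trims the 18S ribosomal RNA, and Brix1, a factor of large-subunit assembly, passed the filter only with the tumor libraries and are given without a test. Nob1 was at log2 FPKM -1.38, -1.55 and -1.29 in bone marrow, -2.03, -1.66 and -1.70 in blood and 1.10, 1.41 and 1.79 in tumor. Brix1 had 13 to 20 reads in blood and 248 to 389 in tumor.

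Other genes with TOP mRNAs are mostly elongation and initiation factors. Of 16, all tested, 13 were higher in tumor than in blood and 1 lower (median 1.00), 10 higher than in bone marrow and 1 lower (median 0.52), and 6 lower in blood than in bone marrow and 0 higher (median -0.36). The shares over all genes tested were 28.1% and 34.5%, 22.4% and 32.9%, and 23.6% and 20.6%. Npm1, the nucleolar chaperone that both lists hold, was 3.49 ± 0.30 higher in tumor than in blood (adjusted p = 4.04e-05). Hnrnpa1 was 2.07 ± 0.17 higher (adjusted p = 3.10e-05), and the elongation factor subunits Eef1d (1.92 ± 0.19, adjusted p = 7.56e-05) and Eef1g (1.52 ± 0.18, adjusted p = 0.000164) rose as well. Of the 3 tested ribosome parts that the naming rule leaves out, Gnb2l1 (Rack1) was 1.45 ± 0.15 higher in tumor than in blood (adjusted p = 8.31e-05), Rpl36al 2.45 ± 0.85 higher (adjusted p = 0.0359) on 1 to 13 reads in blood, and Fau, which like Rps27a is made as a fusion with a ubiquitin-like protein, stood at -0.46 ± 0.20 (adjusted p = 0.0705).

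RNA polymerase I transcribes the ribosomal RNA. Of its 15 listed genes 7 passed the filter, and 2 of them were higher in tumor than in blood and 1 lower (background 28.1% and 34.5%), while 3 were higher than in bone marrow and 1 lower (background 22.4% and 32.9%). Among the 7, 1 gene passed only with the tumor libraries and 1, Polr1a, only with the bone marrow libraries. Polr1a is the 1 counted as lower than in bone marrow. In the fit without a filter 6 of the 15 were higher and 1 lower than in blood. Taf1d rose by 1.65 ± 0.15 against blood (adjusted p = 5.38e-05) and Polr1c by 1.80 ± 0.20 (adjusted p = 0.000150). Twistnb was lower in tumor than in blood (-1.34 ± 0.16, adjusted p = 0.000206). Polr1a, the gene of the catalytic subunit, is given without a test because of its route through the filter. Its log2 FPKM was 0.42, 0.48 and 0.34 in bone marrow, -0.47, -0.08 and -0.12 in blood and -1.17, -0.78 and -0.50 in tumor. Of 12 regulators tested, 3 were higher and 5 lower in tumor than in blood, and the counts against bone marrow were also 3 and 5, shares near those of all genes tested (28.1% and 34.5%, and 22.4% and 32.9%). Mycn is among the 3 in both counts and passed the filter only with the tumor libraries. Max, the partner of Myc, was 1.34 ± 0.12 lower on the log2 scale (-1.34, adjusted p = 4.56e-05), Rps6kb2, an S6 kinase, stood at -1.04 ± 0.10 (adjusted p = 7.29e-05) and Eif4ebp1, a repressor of cap-dependent translation, at -1.77 ± 0.14 (adjusted p = 2.70e-05). Mycn had 119, 106 and 221 reads in tumor, 6, 6 and 1 in bone marrow and 0 in all 3 blood libraries.

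Beside these groups, the 12 cell cycle genes summed to between 927 and 1152 RPM in bone marrow, 65.0 and 73.4 RPM in blood, 412 and 564 RPM in tumor. The 10 genes of immature neutrophils summed to 87664 to 100548 in the bone marrow, 2185 to 3506 in the blood and 6212 to 9230 in the tumor. Their part in the order of the ribosomal protein genes was not tested.

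In all, 9 members were not tested. Rps15a had 22 to 96 reads, Rpl11 65 to 180 and Rpl38 3 to 19. Rpl24, Rpl3l and Rps12l1 had at most 11, 14 and 1 reads. Rpl10l, Rpl39l and Rps12l2 had 0 in every library.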

How the data were processed

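Full-length cDNA (SMARTSeq v2) from pools of 5 mice was sequenced. The authors mapped reads to GRCm38 with STAR 2.5.2b, counted them per GENCODE M7 gene with featureCounts 1.5.0 and deposited log2 FPKM values. Multimapping and strand settings are not given in the sources used here. Compartments were compared with limma (version 3.58.1, R 4.3.3; trended eBayes) over all 9 libraries, for genes with log2 FPKM over 0 in at least 3 libraries, at a Benjamini-Hochberg threshold of 0.05. The fit was tested on simulated data. Whole reads were recovered from the steps of the values (46517 genes, tolerance 0.01) and summed as shares of the total or on the scaled library sizes. Positions, exons and read sharing come from GENCODE M21. Named genes were the listed members, the 5 highest and 5 lowest members of each comparison, and up to 4 genes per outside list by the F-test. Members and lists were chosen with earlier results of these data known. No column was left out (0 not used).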

Additional observations from a re-analysis of the deposited data

How the results depend on the processing

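The direction of the member medians held under every alternative run. With plain library totals the medians were 1.24 in tumor against blood and 0.74 in tumor against bone marrow (all genes 0.30 and 0.26), 37 members were higher in tumor than in bone marrow in place of 17, and 1 was lower than in blood in place of 3. Without the filter on low values, which brings 46517 genes into the adjustment, 29 members were higher in tumor than in blood in place of 44, 3 higher than in bone marrow, and 11 lower and 0 higher in blood than in bone marrow in place of 30 and 3. Quantile normalization left 1 higher in blood than in bone marrow. Leaving out 1 library at a time gave 6 to 22 higher in tumor than in bone marrow, and 16 to 41 lower and 0 to 3 higher in blood than in bone marrow. The paper describes the compartments as taken from the same mice, but the labels do not say that a replicate number marks 1 pool. Libraries with the same number gave no sign of deviating together (correlations from -0.0714 to 0.108), which does not exclude a shared pool. With the replicate number as a replicate block, 46 members were higher and 3 lower in tumor than in blood, 21 and 3 against bone marrow, and 3 higher and 31 lower in blood than in bone marrow. The cause of these shifts was not tested.

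Differences that changed sign were all past no threshold as reported. Under plain library totals, tumor minus bone marrow was 0.057 for Rpl37, 0.42 for Rpl7, 0.41 for Rpl7l1 (adjusted p = 0.0283, past the threshold), 0.11 for Rpl9, 0.050 for Rps13, 0.36 for Rps3 and 0.14 for Rps4x, and tumor minus blood was 0.060 for Rpl41 and 0.38 for Rpl9. Under quantile normalization, tumor minus bone marrow was 0.30 for Rpl7, 0.13 for Rpl7l1, 0.26 for Rps3 and 0.020 for Rps4x, and tumor minus blood was -0.15 for Rpl39, 0.019 for Rpl41 and 0.37 for Rpl9. With 1 library left out, blood minus bone marrow ranged from -0.85 to 0.42 for Rpl22, -0.71 to 0.055 for Rpl22l1, -0.51 to 0.27 for Rpl36, -0.18 to 0.62 for Rpl39, -0.53 to 0.00036 for Rplp1 and -0.41 to 0.12 for Rplp2. Tumor minus bone marrow ranged from -0.10 to 0.34 for Rpl31, -0.072 to 0.59 for Rpl39, -0.22 to 0.17 for Rpl7, -0.12 to 0.059 for Rpl7l1, -0.30 to 0.066 for Rps3 and -0.028 to 0.42 for Rpsa, and tumor minus blood from -0.36 to 0.41 for Rpl39 and -0.26 to 0.13 for Rpl9. Of 50 calls on named members, 34 held in all 9 of these fits. Rpl39, Rps27l, Rpl36 and Rps4l rest on few reads, which limits their precision.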
